A study of Arabidopsis halleri and Arabidopsis lyrata subsp. petraea with 24 samples.

Results

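The class III peroxidases of Arabidopsis were followed across roots and leaves of 2 related species on ATH1 arrays. Each gene is read there by a probe set, a group of short probes copied from the Arabidopsis thaliana genome. Of 60 loci listed for the family, 46 had a probe set of their own in the platform annotation, among 13350 genes with one. Another 6 loci shared 4 probe sets with other genes and are not described by locus, 7 had no entry in the annotation table, and AT5G05340 was listed under its symbol PRX52 only and is kept apart. The filter on dim probe sets left 39 of the 46 for testing. It takes the mean over all arrays, so that a locus dim in leaves could pass through its root levels. The plants were Arabidopsis halleri, a species that tolerates zinc and accumulates it in leaves, and its relative Arabidopsis lyrata subsp. petraea, called A. petraea from here on. They were grown with 25 µM zinc or on a control medium with full mineral supply, whose own zinc level the sources used here do not state. Whole roots and rosette leaves gave 8 groups of 3 arrays: A. halleri roots with zinc and control, A. petraea roots with zinc and control, A. halleri leaves with zinc and control, and A. petraea leaves with zinc and control. The labels do not tell whether replicate arrays used different plants, and p-values thus rest on a spread between arrays that may be technical. Arrays are called below by the serial number in their titles.

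Class III peroxidases are secreted haem enzymes of plants. They use hydrogen peroxide to oxidise phenolic compounds, which links monolignols into lignin, joins phenolics in suberin and ties extensin proteins into the cell wall, and they can also release reactive oxygen species. Roots are known as the main site of expression for many members in A. thaliana, where single enzymes have been tied to root hair growth, vessel lignification, the root growth zone or defence. All roles given below were established in A. thaliana, and members of this family arose by many tandem duplications, so that probes of near-identical copies may take up each other's signal.

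Signals are given as log2(signal + 16), and changes are differences on that scale with their standard error from limma. The printed organ labels did not follow tissue markers. Of the marker lists, 5 of 12 leaf genes (RCA, PSAE-1, PRK, SBPASE and LHCB4.1) and 3 of 10 root genes (PYK10, EXPA7 and EXPA18) had a probe set. Their mean levels put 11 arrays on the root side, where leaf minus root ran from -3.81 to -0.33, and 13 on the leaf side, where it ran from 3.35 to 5.97. This matched the printed organ on 9 of 24 arrays. The arrays were therefore also grouped by an inferred order that is not in the labels and was proposed with results of these data known. In it, the title serials are sorted as text (1, 10, 11, 12 and so on) and each array takes the group printed for its rank. Under this text order the markers matched the organ on 23 of 24 arrays, and the best-correlated array of 22 arrays was of the same species and organ, against 5 arrays under the printed labels. It was of the same group, zinc included, for 1 array under either grouping. In text order it had the same species, organ and replicate number for 19 arrays. Neither the markers nor these correlations thus bear out the zinc labels of text order. Array 24, in text order an A. petraea root array with zinc, had a leaf marker mean of 10.76. Array 5, in text order an A. petraea control leaf array, had the highest root marker mean of the leaf arrays, 7.05, where the other 11 lay between 5.41 and 6.21. Arrays 5 and 24 correlated best with each other (r = 0.92). The mean level of the 46 peroxidases was 6.48 to 7.24 on the 11 arrays of the root side, and 5.39 to 5.72 on 11 arrays of the leaf side, while arrays 5 and 24 stood between them at 6.29 and 6.22. Results that rest on these arrays are given with and without them. In tissue samples, fewer cells of a type and less RNA per cell cannot be told apart.

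In text order, most peroxidases were higher in roots than in leaves and none was lower by the test. In A. halleri, 32 of 39 tested loci were higher in roots and 0 were lower at a limma adjusted p under 0.05. Over all 17107 probe sets, 38% were called there, 25.6% higher and 12.4% lower. In A. petraea, 25 loci were higher and 0 lower, where the background was 21.5% called, 12.1% higher and 9.36% lower. The median change of the 39 loci was 1.26 in A. halleri, against 0.28 over all probe sets, and 1.03 in A. petraea, against 0.19. The leaf markers fell by 4.79 in A. halleri roots and by 4.18 in A. petraea roots relative to leaves, and the root markers were higher by 2.29 and 2.14. Without arrays 5 and 24, 32 and 24 loci were called, against 25.7% and 16.5% of all probe sets called higher. Some loci passed the filter, a mean of 5.27 over all arrays, through their root levels alone. AT4G30170, for one, had A. halleri means of 7.65 in roots and 4.38 in leaves. In the fit without the filter, 36 and 25 of the 46 loci were called, and no share of all probe sets is given for that fit. In A. petraea it lost the call of AT4G08780 and gained that of AT5G47000. The change was above 1 for 23 loci in A. halleri and 20 in A. petraea, above 2 for 10 and 8, and positive in both species for 34. No share of all probe sets is given for these sizes and signs, and the medians over all probe sets were positive too. Of the 39 loci, 24 were called in both species, 8 in A. halleri alone, AT2G39040 in A. petraea alone and 6 in neither. For this split, too, no share of all probe sets is given. Among the called loci, root and leaf arrays did not overlap for 25 of 32 (78.1%) in A. halleri, against 50.8% of all probe sets called higher there, which were 13% of those tested. In A. petraea the sides did not overlap for 3 of 25 (12%), against 18.5% of all probe sets called higher, or 2.24% of those tested. Without arrays 5 and 24 the count in A. petraea was 20 of 24 (83.3%), against 63.9%, or 10.5% of those tested.

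**Figure D1:**
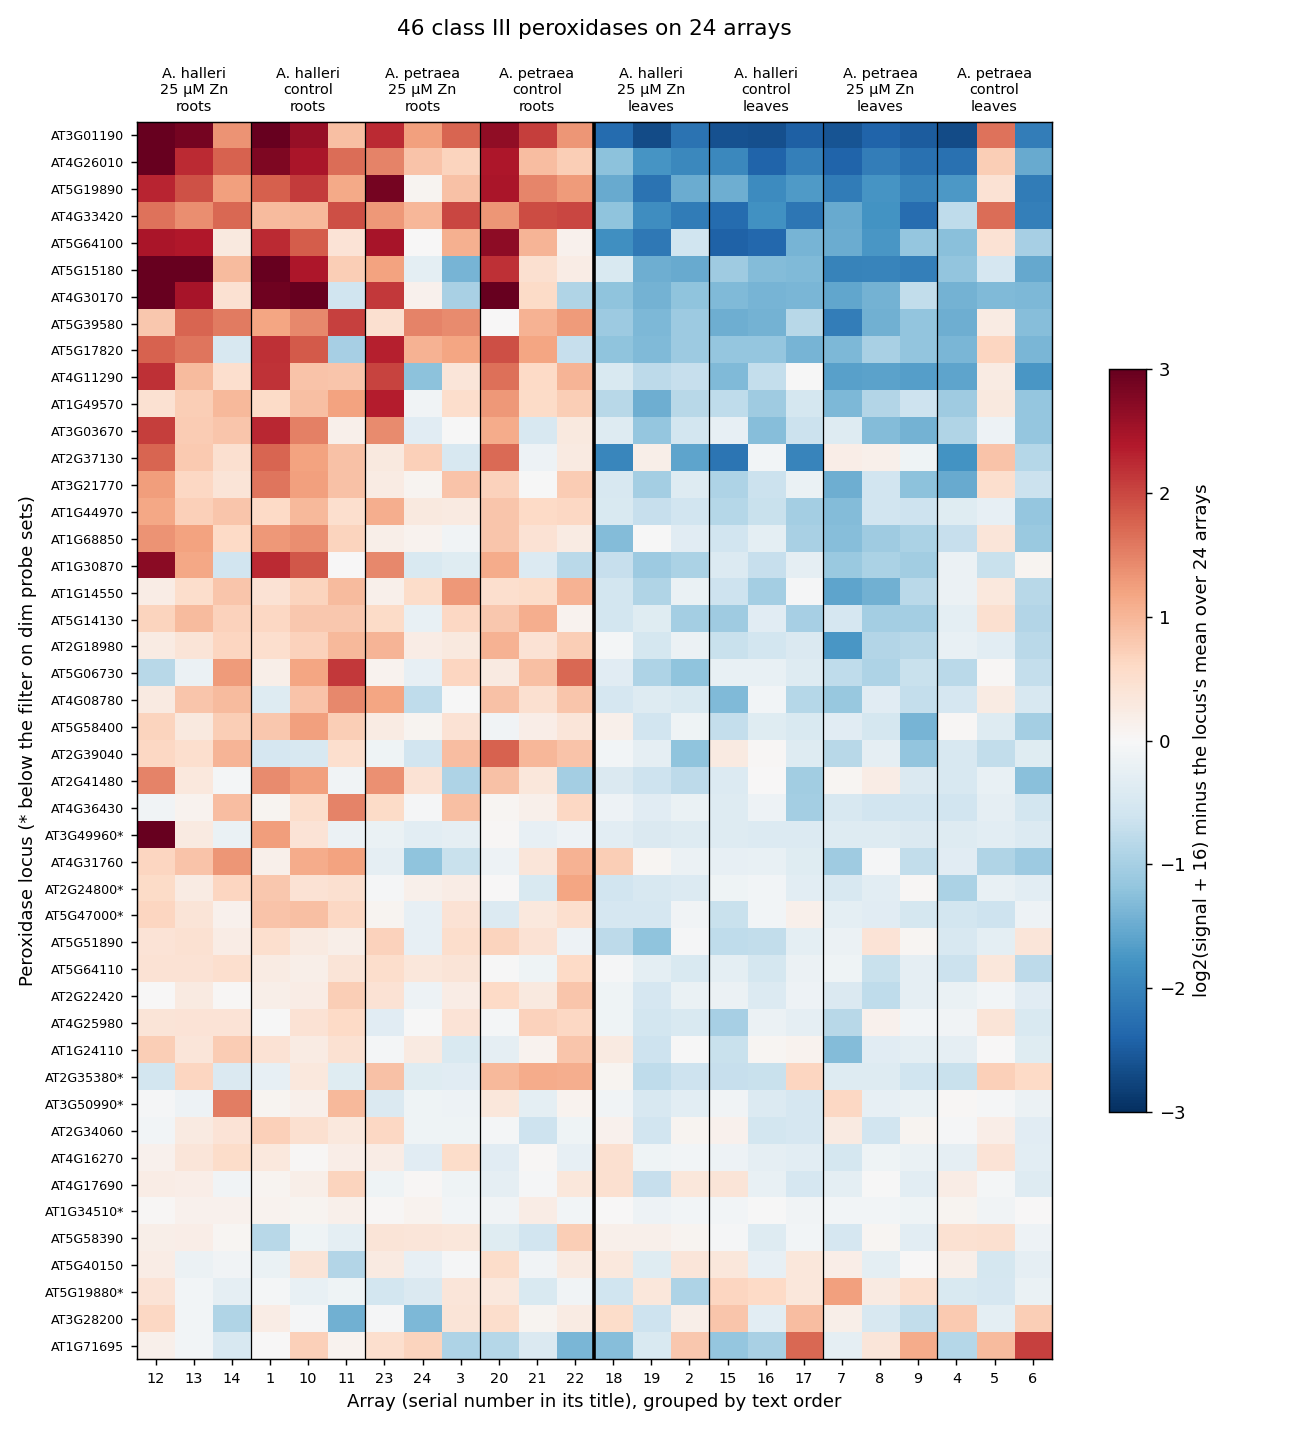
Level of each of the 46 peroxidases (down the page) on each of the 24 arrays (across, by text order, root groups left and leaf groups right), as log2(signal + 16) minus the locus's own mean over the arrays; colours stop at 3 in either direction. Red marks levels above that mean, and the upper loci are mostly red on root arrays and blue on leaf arrays, apart from array 5.

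**Figure D2:**
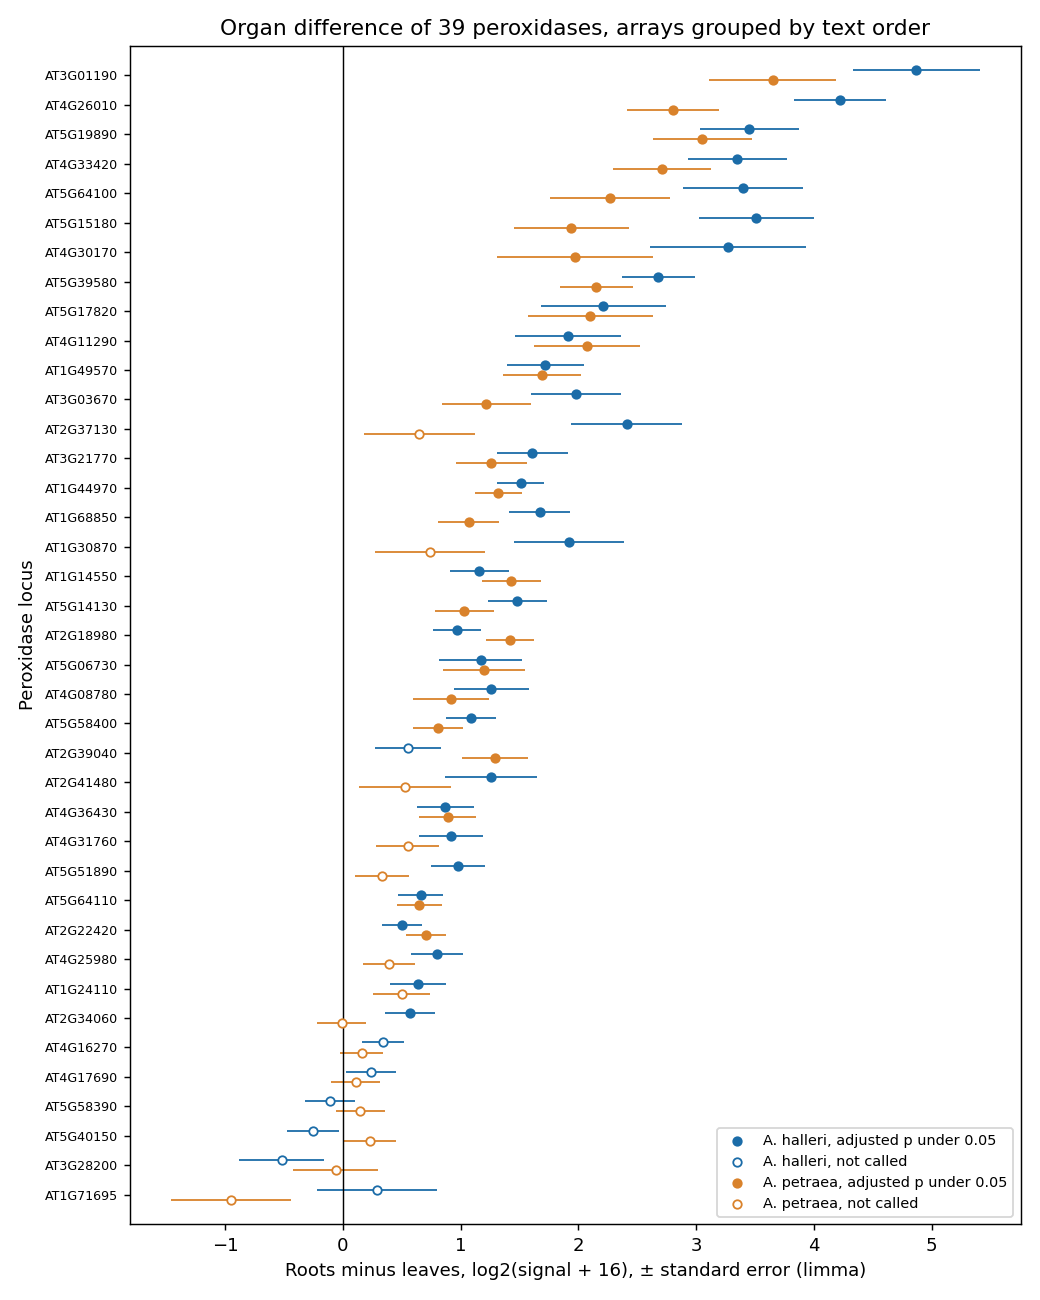
Roots minus leaves for the 39 tested peroxidases, in log2(signal + 16), with bars for the standard error from limma; filled points have an adjusted p under 0.05. All filled points lie to the right of 0, 32 for A. halleri and 25 for A. petraea.

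Among peroxidases tied to root hairs, 3 of 6 had a probe set of their own and all 3 were higher in roots of both species. AT4G26010 (PRX44), which takes part in root hair growth, had a lowest, median and highest level of 8.24, 8.92 and 9.64 on the 6 A. halleri root arrays, against 4.16, 4.64 and 5.35 on the 6 leaf arrays. Every root array lay above every leaf array, and the change was 4.22 ± 0.39 (limma adjusted p = 1.98e-07). With 1 added before taking log2 AT4G26010 changed by 5.61, and with 64 by 2.84. In A. petraea its levels were 7.25, 7.46 and 8.99 in roots, against 4.16, 4.41 and 7.30 in leaves, where 7.30 belonged to array 5. The change was 2.80 ± 0.39 (adjusted p = 5.32e-05), and 3.27 ± 0.34 without arrays 5 and 24. AT5G64100 (PRX69), which acts in root hair growth at low temperature, had levels of 7.00, 8.75 and 9.16 in A. halleri roots, against 4.29, 4.72 and 6.11 in leaves, a change of 3.40 ± 0.51 (adjusted p = 3.39e-05). In A. petraea roots it had 6.72, 7.76 and 9.41, against 4.96, 5.51 and 7.16 in leaves, a change of 2.27 ± 0.51 (adjusted p = 0.00296), and 2.82 ± 0.52 without arrays 5 and 24. The leaf array at 7.16 was array 5, and the others reached at most 5.73. AT5G39580 (PRX62), with the same role as PRX69, was higher by 2.68 ± 0.31 in A. halleri roots and by 2.15 ± 0.31 in A. petraea roots (adjusted p = 1.77e-06 and 5.82e-05).

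Among the 6 loci named for their organ difference, AT3G01190 (PRX27), to which no role is assigned here, had the largest on this scale. Its levels on A. halleri root arrays were 7.72, 9.56 and 10.14 (lowest, median, highest), against 4.13, 4.28 and 4.60 on leaf arrays. That gap of 4.87 ± 0.54 (limma adjusted p = 1.42e-06) rests on leaf signals of 1.5 to 8.2, under the 16 added before taking log2, so that its size depends on the number added: it was 6.92 with 1 and 3.24 with 64. In A. petraea roots it had 8.05, 8.73 and 9.48, against 4.13, 4.37 and 8.44 in leaves, a change of 3.65 ± 0.54 (adjusted p = 8.39e-05). Array 5 alone gave the leaf level of 8.44, the next being 4.74, and without arrays 5 and 24 the change was 4.45 ± 0.40. AT5G19890 (PRX59) had 8.80, 9.50 and 9.95 in A. halleri roots, against 5.45, 6.05 and 6.19 in leaves (3.45 ± 0.42, adjusted p = 4.18e-06). In A. petraea it had 7.75, 9.03 and 10.54 in roots, against 5.55, 5.79 and 8.09 in leaves (3.05 ± 0.42, adjusted p = 5.24e-05). Its lowest root level belonged to array 24 and its highest leaf level to array 5. AT5G15180 (PRX56) reached 6.89, 8.94 and 9.50 in A. halleri roots, against 4.64, 4.83 and 5.69 in leaves (3.51 ± 0.49, adjusted p = 1.55e-05). In A. petraea roots it spread more widely, with 4.74, 6.50 and 8.33, against 4.1, 4.39 and 5.63 in leaves (1.94 ± 0.49, adjusted p = 0.00734), and the sides overlapped with and without array 5, since array 3 stood at 4.74. With 1 or 64 added, the AT5G15180 change was 4.45 or 2.39 in A. halleri and 3.40 or 1.04 in A. petraea. AT4G30170 (PRX45), not among the 6, was higher by 3.27 ± 0.66 in A. halleri roots and by 1.97 ± 0.66 in A. petraea roots (adjusted p = 0.000744 and 0.0384). Its leaf signals, 3.4 to 6.7 in A. halleri and 1.7 to 15.6 in A. petraea, all lay under the 16 added. These sizes thus also depend on the number added. Its call in A. petraea was lost without arrays 5 and 24 (2.06 ± 0.78, adjusted p = 0.0552), and also without any single one of arrays 4, 5, 6, 7, 8, 20, 21 and 23, with a pseudocount of 64 and with quantile normalization. It was called in 21 of 32 alternatives that tested it.

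**Figure D3:**
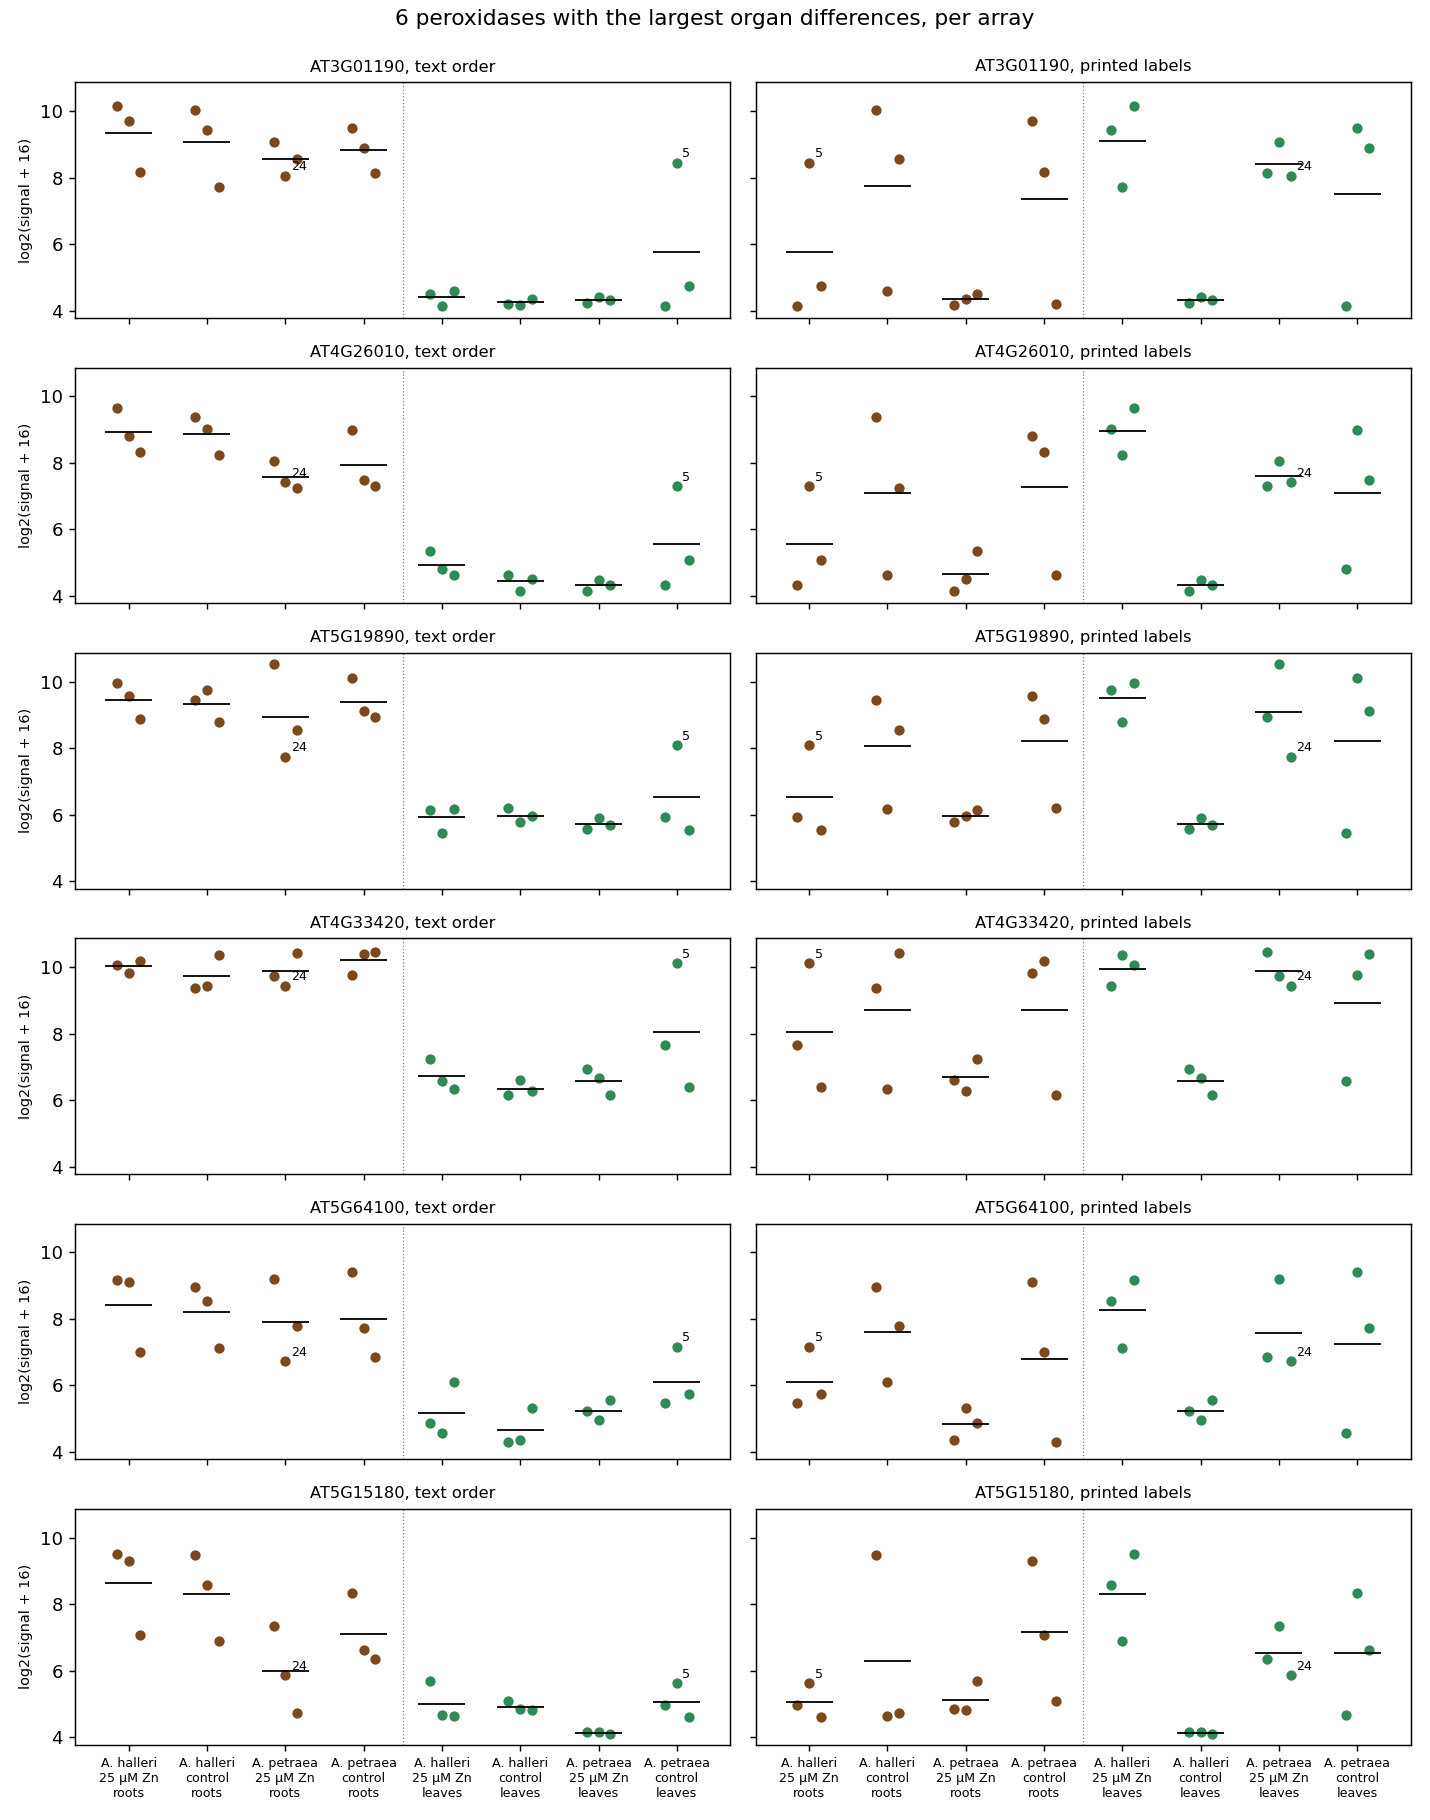
Levels in log2(signal + 16) of the 6 peroxidases with the largest organ differences on every array, with arrays grouped by text order (left panels) and by printed labels (right panels); brown points are arrays given as roots, green points arrays given as leaves, bars are group means, and arrays 5 and 24 are numbered. In text order the A. halleri root arrays of AT4G26010 lie at 8.24 to 9.64 and its leaf arrays at 4.16 to 5.35, while under the printed labels both colours hold high and low levels.

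Peroxidases of lignified tissue were split. AT4G33420 (PRX47), linked to vessel lignification, had 9.38, 9.94 and 10.37 on A. halleri root arrays, against 6.14, 6.45 and 7.23 on leaf arrays (3.35 ± 0.42, limma adjusted p = 4.72e-06). In A. petraea it had 9.44, 10.07 and 10.44 in roots, against 6.16, 6.79 and 10.12 in leaves (2.71 ± 0.42, adjusted p = 0.000108). Array 5, at 10.12, lay within the range of the root arrays, and the change was 3.34 ± 0.30 without arrays 5 and 24. AT5G51890 (PRX66), also linked to vessels, was called in A. halleri (0.98 ± 0.23, adjusted p = 0.00255) and not in A. petraea (0.33 ± 0.23, adjusted p = 0.309). AT2G41480 (PRX25), a stem lignin peroxidase, followed the same calls, with 1.26 ± 0.39 and 0.53 ± 0.39 (adjusted p = 0.016 and 0.348). Its root and leaf arrays overlapped in A. halleri, and its call there was lost with quantile normalization (1.05, adjusted p = 0.0603). AT2G22420 (PRX17), of lignified tissue and flowering, was higher in roots of A. halleri by 0.50 ± 0.17 and of A. petraea by 0.71 ± 0.17 (adjusted p = 0.0224 and 0.00417). Its call in A. halleri was lost without array 11, 13, 16 or 19 (adjusted p between 0.0522 and 0.0701). With quantile normalization that call was lost too (0.30, adjusted p = 0.176). PRX52, a lignin peroxidase of stem fibres, was not called in either species (-0.81 ± 0.43 in A. halleri and 0.40 ± 0.43 in A. petraea).

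The genes repressed by UPBEAT1, a transcription factor that acts through peroxidases in the root growth zone, were AT4G11290 (PRX39), AT4G16270 (PRX40) and AT5G17820 (PRX57). PRX39 was higher in roots by 1.91 ± 0.45 in A. halleri and by 2.07 ± 0.45 in A. petraea (limma adjusted p = 0.00276 and 0.00257). PRX57 was higher by 2.21 ± 0.53 and 2.10 ± 0.53 (adjusted p = 0.00292 and 0.0075), with root levels spread from 4.74 to 7.91 in A. halleri and from 5.04 to 8.05 in A. petraea. PRX40, which also links extensins in the tapetum of anthers, changed by 0.34 ± 0.18 and 0.16 ± 0.18 and was not called (adjusted p = 0.151 and 0.568). AT1G44970 (PRX9), its partner in the tapetum, was higher in roots by 1.51 ± 0.20 and 1.32 ± 0.20 (adjusted p = 7.87e-06 and 8.81e-05). Its root arrays lay between 7.09 and 7.74 in A. halleri and 6.84 and 7.67 in A. petraea, above all leaf arrays of their species, which ran from 5.55 to 6.13 and from 5.28 to 6.34. Of the defence peroxidases, AT1G14550 (PRX5), induced in pattern-triggered immunity, was higher by 1.16 ± 0.25 and 1.43 ± 0.25 (adjusted p = 0.00125 and 0.00035). AT2G37130 (PRX21), a pathogen-responsive member, had 8.24, 8.81 and 9.51 in A. halleri roots, against 5.57, 5.99 and 7.93 in leaves (2.41 ± 0.47, adjusted p = 0.00052). In A. petraea its sides overlapped, with 7.29, 8.05 and 9.46 in roots, against 5.97, 7.78 and 8.63 in leaves (0.65 ± 0.47, adjusted p = 0.337).

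AT2G39040 (PRX24), called in A. petraea alone, changed by 0.55 ± 0.28 in A. halleri and 1.29 ± 0.28 in A. petraea (limma adjusted p = 0.126 and 0.00242). The 8 loci called in A. halleri alone were PRX21, PRX25, PRX46, PRX66, AT1G24110, AT1G30870 (PRX7), AT2G34060 and AT4G25980. AT2G18980 and AT4G36430 (PRX49), with PRX9, were the 3 loci whose A. petraea root arrays all lay above the leaf arrays with array 5 included. AT2G18980 was higher in roots by 0.97 ± 0.20 in A. halleri and 1.42 ± 0.20 in A. petraea (adjusted p = 0.000804 and 5.32e-05), and AT4G36430 by 0.87 ± 0.24 and 0.89 ± 0.24 (adjusted p = 0.00736 and 0.011).

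The 6 loci called in neither species were AT1G71695 (PRX12), AT3G28200, AT4G16270, AT4G17690, AT5G40150 and AT5G58390, with changes from -0.52 to 0.34 in A. halleri and -0.95 to 0.23 in A. petraea. AT1G71695 had the lowest value in A. petraea (-0.95 ± 0.51, limma adjusted p = 0.184). Its leaf levels spread widely, between 5.22 and 8.22 in A. halleri and between 5.63 and 8.55 in A. petraea. The leaf arrays with replicate number 3 in text order, arrays 2, 17, 9 and 6, held 7.31, 8.22, 7.62 and 8.55, and those with number 1, arrays 18, 15, 7 and 4, held 5.22, 5.33, 6.22 and 5.63. This locus was picked for that spread after its values were seen. Of the 7 loci below the filter, AT1G34510 never rose above 4.46. AT3G49960 stood at 8.76 on array 12, an A. halleri root array with zinc in text order, and at 5.80 or below on the other 23 arrays. AT3G50990 (PRX36), which loosens the seed coat for mucilage release, reached 6.29 on array 14 and 5.73 on the next highest. AT2G24800, AT2G35380, AT5G19880 and AT5G47000 stayed at or below 6.38. In a fit without the filter, AT2G24800, AT3G49960, AT3G50990 and AT5G47000 were called higher in A. halleri roots than leaves. AT5G47000 was also called so in A. petraea.

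The organ differences, the loci called in a single species included, were not shown to differ between the species. The change was larger in A. halleri than in A. petraea for 29 of 39 loci with all arrays and for 23 of 39 without arrays 5 and 24, where 57.2% and 53.8% of all probe sets leaned the same way. The median difference between the species was 0.35 with all arrays and 0.13 without those arrays, and without them the median organ changes were 1.26 in A. halleri and 1.27 in A. petraea. In the test of the difference between species 0 loci were called by limma, 3 had an unadjusted p under 0.05, and 0.52% of all probe sets were called. That unadjusted p was reached by 1790 of the 17107 probe sets. AT2G37130 had the smallest p, with a difference of 1.77 ± 0.67 (adjusted p = 0.309), followed by AT4G26010 with 1.42 ± 0.56 (adjusted p = 0.337). With array weights, which count deviating arrays less, 3 loci were called, all larger in A. halleri, where 1.87% of all probe sets were called in that direction.

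Between the species, few peroxidases differed within an organ in text order. In roots, 2 of 39 loci were called, both higher in A. halleri, where 4.69% of all probe sets were called, 2.43% higher and 2.26% lower. AT5G15180 had 6.89, 8.94 and 9.50 on A. halleri root arrays, against 4.74, 6.50 and 8.33 on A. petraea root arrays (1.93 ± 0.49, limma adjusted p = 0.0255). AT4G31760 (PRX46) had 5.67, 6.49 and 6.85, against 4.30, 5.30 and 6.56 (1.03 ± 0.27, adjusted p = 0.0287). The sides overlapped for both loci. With the replicate number as a block 4 loci were called, where 4.31% of all probe sets were called higher, with array weights 7, against 9.57%, and without arrays 5 and 24, 0. Either call was also lost when certain arrays were left out by themselves: that of AT5G15180 without array 1, 3, 10, 12, 13, 21, 22 or 24, and that of AT4G31760 without array 10, 11, 13, 14, 20, 21 or 24. In leaves, 0 loci were called by limma and 3 had an unadjusted p under 0.05, where 6.06% of all probe sets were called, 2.9% higher and 3.16% lower. That unadjusted p was reached by 3285 of the 17107 probe sets. AT5G51890 had the smallest adjusted p there, 0.126, with -0.62 ± 0.23. An A. thaliana probe that mismatches the gene of either species reads low, and the part of such mismatches in both comparisons was not tested.

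Zinc moved no peroxidase past the test in text order, in either organ of either species. The zinc labels of that order are inferred, and neither markers nor array correlations bear them out. In A. halleri roots 0 of 39 loci were called by limma and 2 had an unadjusted p under 0.05, and 0% of all probe sets were called. Of the 17107 probe sets, 322 had such an unadjusted p. The median change of the family was 0.03, between -1.07 and 0.88. AT2G39040 (PRX24) stood at 6.38, 6.25 and 6.78 with zinc, against 5.24, 5.27 and 6.26 on control medium (0.88 ± 0.40, adjusted p = 1). AT5G06730 stood at 5.08, 5.73 and 7.20 with zinc, against 6.09, 7.11 and 8.03 on control medium (-1.07 ± 0.49, adjusted p = 1). Each zinc array was below the control array of the same number, but the sides overlapped. In A. halleri leaves 0 loci were called, 0 had an unadjusted p under 0.05 and 0% of all probe sets were called. Of the 17107 probe sets, 100 had such an unadjusted p. The median change was 0.07. AT4G31760 had 6.25, 5.57 and 5.34 with zinc, against 5.26, 5.29 and 5.16 (0.48 ± 0.38, adjusted p = 1), and AT4G16270 had 6.76, 6.14 and 6.18, against 6.11, 6.01 and 5.96 (0.33 ± 0.26, adjusted p = 1).

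In A. petraea roots 0 loci were called by limma, 2 had an unadjusted p under 0.05, and 0% of all probe sets were called. Of the 17107 probe sets, 434 had such an unadjusted p. The median change was -0.23, and -0.01 without arrays 5 and 24. AT4G31760 had 5.24, 4.30 and 4.84 with zinc, against 5.36, 5.88 and 6.56 on control medium, with no overlap (-1.14 ± 0.38, adjusted p = 1). AT2G39040 had 5.63, 5.19 and 6.69 with zinc, against 7.52, 6.74 and 6.61 (-1.12 ± 0.40, adjusted p = 1). The lowest zinc level of both loci belonged to array 24, and without arrays 5 and 24 the changes were -0.89 ± 0.42 and -0.80 ± 0.43. In A. petraea leaves 0 loci were called and 4 had an unadjusted p under 0.05, with 0.00585% of all probe sets called. For this comparison, the number of all probe sets with such an unadjusted p is not given. The count of 4 thus does not tell a shift of the family from one of the whole array. AT1G14550 had 4.05, 4.19 and 4.82 with zinc, against 5.45, 5.95 and 4.80 (-1.04 ± 0.35, adjusted p = 0.999). AT4G33420 had 6.93, 6.65 and 6.16 with zinc, against 7.67, 10.12 and 6.38, and its change of -1.48 ± 0.59 (adjusted p = 0.999) was -0.45 ± 0.43 without arrays 5 and 24. The root markers changed by -0.69 in this comparison, and the median of the family was -0.31, and -0.11 without those arrays. The zinc responses of the species were not shown to differ: in the test of that difference 0 loci were called in roots and 0 in leaves, 2 and 4 had an unadjusted p under 0.05, and 0% of all probe sets were called in both. Such an unadjusted p was reached by 364 of the 17107 probe sets in roots and 261 in leaves. AT2G39040 in roots had the smallest p, with a difference of 2.00 ± 0.56 (unadjusted p = 0.00184 in limma, adjusted p = 1), and 1.68 ± 0.58 without arrays 5 and 24. In leaves the smallest p belonged to AT2G18980, with 1.00 ± 0.40 (adjusted p = 1), and AT4G33420, with 1.85 ± 0.83 (adjusted p = 1). Without arrays 5 and 24 these differences were 0.93 ± 0.43 and 0.82 ± 0.57, the median of the family was 0.26, against 0.48 with them, and the mean of the root markers was 0.80, against 1.21.

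**Figure D4:**
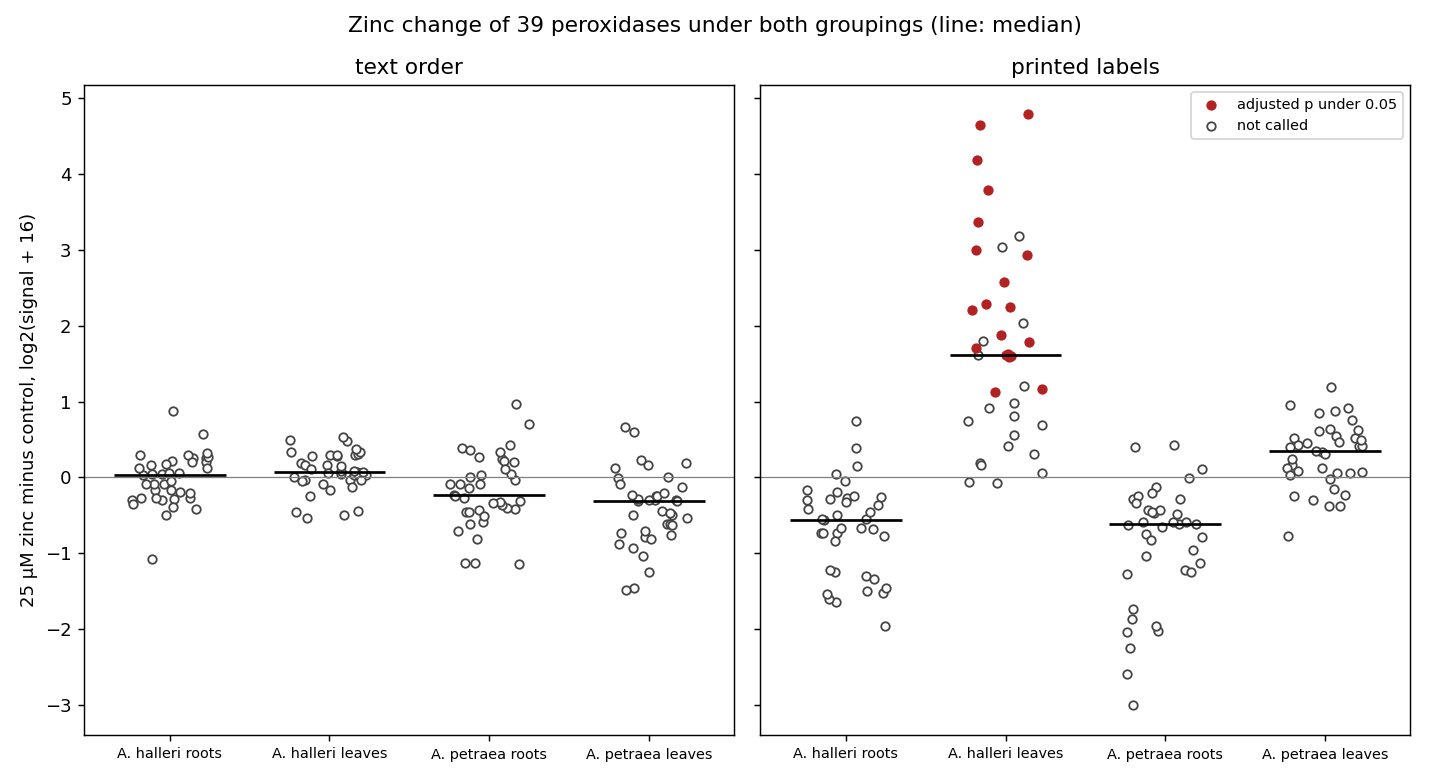
Change with 25 µM zinc of the 39 tested peroxidases in each organ and species, in log2(signal + 16), under text order (left) and printed labels (right); each point is a locus, lines are medians, and red points have an adjusted p under 0.05. In text order 0 points are red, and under the printed labels 20 points are red, all in the column of A. halleri leaves.

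Under the printed labels the family gave another picture. No peroxidase passed the test between roots and leaves in A. halleri or A. petraea: 0 loci and 0% of all probe sets were called by limma in each, and 0 and 4 loci had an unadjusted p under 0.05. Such an unadjusted p was reached by 247 and 2279 of the 17107 probe sets. The median changes were -0.10 and -0.34. AT4G26010 had 4.34, 6.16 and 9.37 (lowest, median, highest) on arrays labelled A. halleri roots, against 4.16, 6.37 and 9.64 on arrays labelled A. halleri leaves. Both sides held high and low arrays. The smallest p in A. halleri belonged to AT4G31760 (-0.69 ± 0.34) and AT2G41480 (-0.79 ± 0.43), both with adjusted p = 1. In A. petraea they were AT2G37130 (-1.32 ± 0.59, adjusted p = 0.345) and AT1G44970 (-0.70 ± 0.32, adjusted p = 0.358). Between the species 0 loci were called in roots and 0 in leaves, with 1 locus at an unadjusted p under 0.05 in each and 0% of all probe sets called by limma in either. Such an unadjusted p was reached by 942 of the 17107 probe sets in roots and 931 in leaves. AT4G31760 in roots (-0.85 ± 0.34, adjusted p = 0.831) and AT2G18980 in leaves (-0.74 ± 0.28, adjusted p = 0.869) had the smallest p, followed by AT2G39040 in both (-0.62 ± 0.37 and -0.71 ± 0.37).

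The printed labels gave zinc calls in A. halleri leaves alone. There 20 of 39 peroxidases were higher on the arrays labelled with zinc and 0 lower, where 17.2% of all probe sets were called by limma, 11% higher and 6.24% lower. The median change of the family was 1.61, against 0.30 over all probe sets. In the same comparison the leaf markers fell by 4.95 and the root markers were higher by 2.82. The arrays so labelled were 10, 11 and 12, whose root marker means were 8.31, 7.28 and 9.49, against 5.58, 5.50 and 5.56 on arrays 7, 8 and 9, labelled control leaves. In text order the zinc side holds A. halleri root arrays and the control side A. petraea leaf arrays with zinc. AT3G01190 had 9.44, 7.72 and 10.14 on the zinc side, against 4.22, 4.42 and 4.32 on the control side (4.78 ± 1.47, adjusted p = 0.0348). AT4G26010 had 9.02, 8.24 and 9.64, against 4.16, 4.49 and 4.34 (4.64 ± 1.14, adjusted p = 0.0167). AT5G15180 had 8.57, 6.89 and 9.50, against 4.15, 4.17 and 4.1 (4.18 ± 1.12, adjusted p = 0.0228). The other 3 of the 6 largest changes were those of AT5G19890 (3.79 ± 1.06), AT4G33420 (3.37 ± 1.13) and AT5G39580 (3.00 ± 0.77). The sides did not overlap for any of these 6 loci. Leaving out any array of the 2 groups brought the count to between 2 and 10: 2 without array 7 or 10, 4 without array 9, 8 without array 8 and 10 without array 11 or 12.

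Elsewhere under the printed labels, zinc called 0 peroxidases in A. halleri roots, where 0.0585% of all probe sets were called by limma, and 0 in A. petraea roots and 0 in A. petraea leaves, where 0% were. With array weights 14 loci were called in A. petraea roots, all lower with zinc, where 10.7% of all probe sets were called lower. In A. halleri roots, A. petraea roots and A. petraea leaves, an unadjusted p under 0.05 was reached by 2, 4 and 2 loci. So it was by 1718, 1194 and 669 of the 17107 probe sets. The medians were -0.56, -0.61 and 0.35, and the leaf markers changed by 3.49, 3.42 and 0.56 in the same comparisons. The smallest p in A. halleri roots belonged to AT3G21770 (-1.25 ± 0.55, adjusted p = 0.485) and AT5G58400 (-0.83 ± 0.38, adjusted p = 0.488). In A. petraea roots they belonged to AT1G68850 (-1.27 ± 0.47) and AT4G26010 (-2.59 ± 1.14), both with adjusted p = 0.661. In A. petraea leaves they were AT5G58390 (0.76 ± 0.31) and AT5G64110 (0.64 ± 0.31), both with adjusted p = 1. Restricting the printed groups to arrays whose markers match the label left no array for 3 of the 8 groups. In A. petraea leaves 1 array was left on either side, the zinc array being array 24, so that no comparison is made.

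Within the root arrays of text order, some peroxidases followed the replicate number, while 23 of 39 tested loci (59%) overlapped between number 1 and number 3. On arrays 12, 1, 23 and 20, number 1 of their groups, the root marker mean lay between 9.03 and 9.49. On arrays 14, 11, 3 and 22, number 3 of their groups, it lay between 6.24 and 7.51. The labels print number 1 for the A. halleri control root sample of serial 3, which was taken as number 3, and text order passes that number to array 11. Array 1 carries a growth stage label unlike those of the other 23 arrays. Of the 39 tested loci, 10 (25.6%) had all 4 arrays of number 1 above all 4 of number 3, as had 8.58% of all probe sets. Another 6 loci (15.4%) had them all below, near the 12.3% of all probe sets that did so. Without arrays 1 and 11 the counts were again 10 and 6, of the same loci, against 11.4% and 17.9% of all probe sets. This split was chosen after the values were seen and was not tested, and array 24 was left out of it. The 10 loci included PRX27, PRX56, PRX59, PRX69 and PRX45 together with AT1G30870, AT3G03670, PRX25, PRX39 and PRX57. AT4G30170 (PRX45) had 9.03, 8.62, 7.83 and 8.81 on arrays 12, 1, 23 and 20, and 6.16, 5.11, 4.73 and 4.81 on arrays 14, 11, 3 and 22. AT5G15180 (PRX56) had 9.50, 9.49, 7.34 and 8.33 on the same arrays of number 1, and 7.09, 6.89, 4.74 and 6.36 on those of number 3. Both species showed the gap. The 6 loci of the opposite direction, whose share is near that of all probe sets, were PRX5, PRX47, PRX62, AT4G25980, AT4G36430 and AT5G06730. AT5G06730 had 5.08, 6.09, 6.02 and 6.19 on the arrays of number 1, and 7.20, 8.03, 6.55 and 7.65 on those of number 3. AT5G39580 (PRX62) had 8.08, 8.47, 7.75 and 7.29, and 8.84, 9.33, 8.71 and 8.55. Among the root hair peroxidases PRX69 was lower on the arrays of number 3, PRX62 was higher there, and PRX44 overlapped. The part in this split of the root markers, which include the root hair expansins EXPA7 and EXPA18, was not tested.

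**Figure D5:**
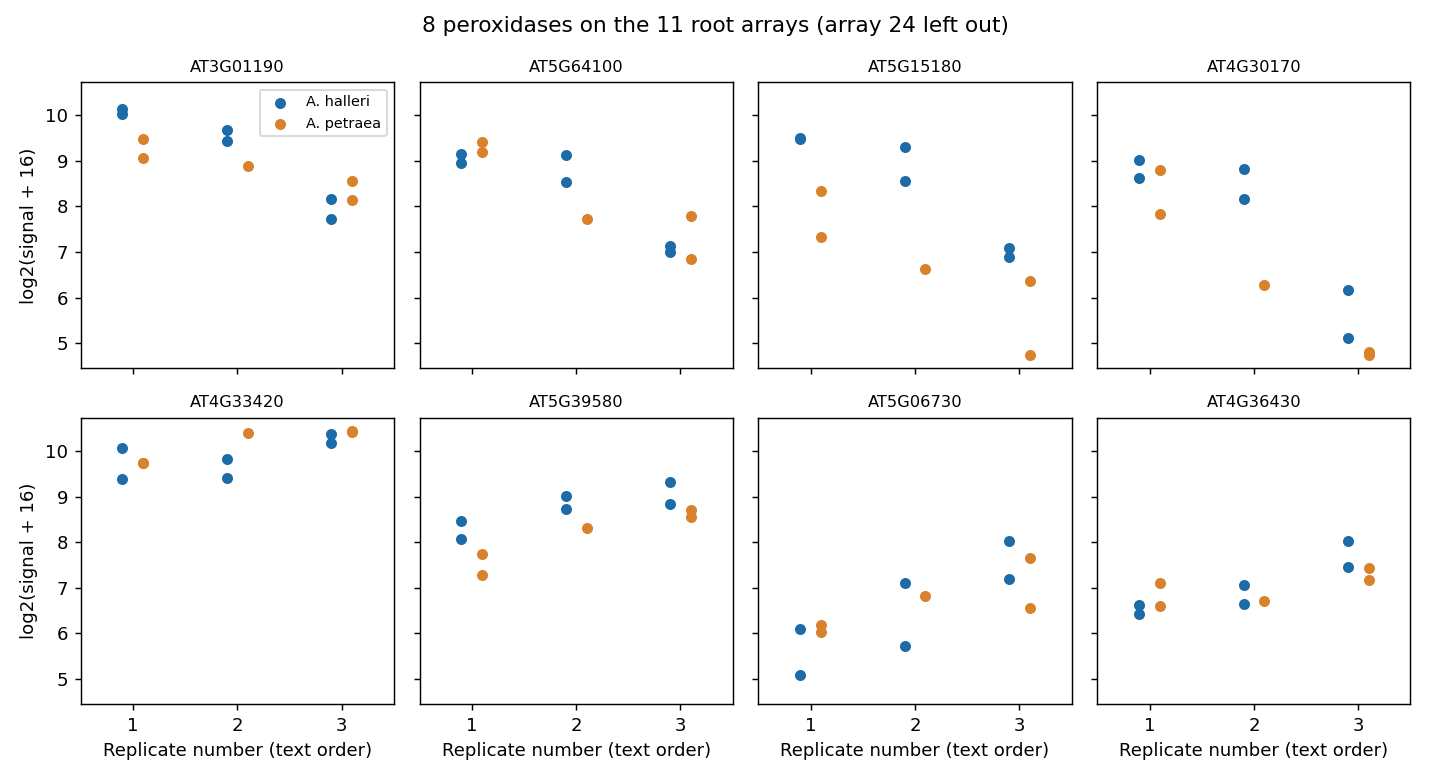
Levels in log2(signal + 16) of 8 peroxidases on the 11 root arrays of text order, by replicate number; blue points are A. halleri, orange points A. petraea. The upper 4 loci have their 4 arrays of number 1 above those of number 3, and the lower 4 have them below.

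Few genes that work beside the peroxidases had a probe set of their own. Of 17 monolignol genes HCT and CCR2 were measured, and both were higher in roots of text order. HCT, a hydroxycinnamoyl transferase, changed by 0.79 ± 0.23 in A. halleri and 0.91 ± 0.23 in A. petraea (limma adjusted p = 0.0112 and 0.00798). CCR2, a cinnamoyl-CoA reductase, changed by 2.07 ± 0.74 and 2.17 ± 0.74 (adjusted p = 0.0324 and 0.0403). Of 10 NADPH oxidases, which supply the superoxide from which hydrogen peroxide forms, 3 were measured and RBOHE was tested. It was higher in roots by 1.38 ± 0.17 and 0.83 ± 0.17 (adjusted p = 5.34e-06 and 0.00172). FACT, which esterifies fatty alcohols in suberin, was the measured gene of 19 in suberin and the Casparian strip, and was higher by 2.27 ± 0.30 and 2.21 ± 0.30 (adjusted p = 9.01e-06 and 4.61e-05). Of 17 laccases, which also oxidise monolignols, LAC16 was measured and lay below the filter. HCT, CCR2, RBOHE and FACT were not called between the species in roots or leaves.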

How the data were processed

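The deposited values are linear intensities, summarised per probe set with MAS5 per the submitters' processing notes (version not given in the sources used here). Signals under 16 made up 20.6% to 27.8% of each array, median signals ran from 43.0 to 71.5, and 3 arrays per group limit the precision. From these, log2(signal + 16) was taken and the lowest 25% of 22810 probe sets by mean were left out (17107 kept). limma 3.58.1 in R 4.3.3 fitted the 8 group means (16 residual degrees of freedom; eBayes with trend and robust settings), two-sided, with Benjamini-Hochberg adjustment over all probe sets. The fit was tested on simulated data. No member had several probe sets. Gene names are those of GEO's platform table and may be outdated. Groups were taken as printed in the titles and by text order. The members and gene lists were chosen with earlier results of these data known. Named loci were the 6 called with the largest organ change, loci called between species, for comparisons with 0 calls the 2 of smallest p, and members of role lists. Further loci, among them AT4G30170, AT4G36430, AT1G71695 and AT3G49960, were named for their values, outside these rules. In text order, same-numbered zinc and control arrays deviated together (r = 0.20 to 0.81) except in A. petraea roots (r = -0.05 to 0.51). The main fit, from which the zinc p-values come, did not use the replicate numbers. Alternatives were other pseudocounts, filters, normalization, weights, a block and left-out arrays. Shared probe sets were left out.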

Additional observations from a re-analysis of the deposited data

Results flagged for a closer look

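In text order, 24 sets of 6 arrays were examined for an array far from the others. They were the 6 loci with the largest organ differences, each in 2 organs of 2 species. Chance alone flags about 1 in 20 such sets. The 6 loci were read on the same arrays, so the sets are not independent. A count of flagged sets thus does not tell how often chance would give it. An outlying array was found in 4 of the 24 sets, each time array 5 among the A. petraea leaf arrays. AT3G01190 stood at 8.44 there, where the other 5 leaf arrays lay between 4.13 and 4.74. AT5G19890 stood at 8.09, against 5.55 to 5.93. AT4G26010 stood at 7.30, against 4.16 to 5.07. AT5G64100 stood at 7.16, against 4.96 to 5.73. On the same array the leaf marker mean was 10.40 and the root marker mean 7.05.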

How the results depend on the processing

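The counts of called peroxidases in text order kept to 29 to 32 for A. halleri and 21 to 25 for A. petraea in the organ comparison when arrays were left out in turn. Leaving out the lowest 50% of probe sets, which tests 21 members, gave 18 and 14. No filter at all gave 36 and 25. For the species difference in roots (2 loci), left-out arrays gave 0 to 4, a pseudocount of 1 gave 1, a pseudocount of 64 gave 4, the stricter filter gave 0, array weights gave 7, the replicate block gave 4 and the fit without arrays 5 and 24, chosen after the data were seen, gave 0. The difference between species in organ change gave 3 loci with array weights, against 0. The replicate block moved no other count of members by over 1.5 times, the blocks within species and organ included. A main count of 0, as for zinc in text order, has no such ratio. For zinc in A. halleri leaves under the printed labels (20 loci), the stricter filter gave 11, quantile normalization 13, the replicate block 16 and left-out arrays 2 to 23. Zinc in A. petraea roots under the printed labels gave 14 loci with array weights, all lower, against 0; the leaf markers changed by 3.42 there. The remaining counts were 0 whenever an array was left out. AT4G16270 in A. petraea, roots minus leaves, turned to -0.03 with quantile normalization, against 0.16. Of 2211 alternative values for the named loci, 60 lost their call and 5 gained one. The cause of these shifts was not tested. Counts given here without a share of all probe sets do not tell a shift of the family from one of the whole array. Averaging over several probe sets of a gene was not run, since each member had 1. Dim loci near the pseudocount have understated changes, and 3 arrays per group limit what zinc effects could be seen.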
